A study of Mus musculus with 18 samples.

Results

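The genes described here carry glucose into cells, trap it there, signal for nutrient uptake or hold glucose entry back. They are Txnip, Nr3c1, Cnr2, Slc2a1, Slc2a3, Hk2, Hk3 and Insr, and were followed in pro-B cells that lack Ebf1 or Pax5. The members were taken by symbol, and all 8 were among the 24072 genes of the RNA table. Of the 14377 sites bound by EBF1 or PAX5 in published ChIP data, 11 were annotated to 5 of the members, and Txnip, Slc2a3 and Hk3 had none.

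Glucose enters lymphocytes through facilitative transporters, chiefly GLUT1 (encoded by Slc2a1) and GLUT3 (Slc2a3), and hexokinases trap it inside the cell by phosphorylation. TXNIP, an alpha-arrestin, promotes the removal of glucose transporters from the cell surface, and the insulin receptor (Insr) signals for nutrient uptake. In human B cell leukaemia PAX5 and IKZF1 have been described as restricting glucose supply, in part through TXNIP, the glucocorticoid receptor NR3C1 and the cannabinoid receptor CNR2, which is the sense in which those genes are called brakes.

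The cells were C57BL6/J fetal liver pro-B cells deficient in Ebf1 (Ebf1-KO), deficient in Pax5 (Pax5-KO) or wild type (WT), all expanded on OP9 stromal cells with KIT ligand, Fms-like tyrosine kinase 3 ligand and interleukin-7. Both genes encode transcription factors that commit cells to the B lineage, and no age or litter is given. RNA and accessible chromatin (ATAC) were sequenced in 3 libraries per genotype and assay. The comparisons ask how transcript levels and open chromatin differ between these genotypes. No label ties the libraries of a genotype to different cultures or animals, so p-values measure the spread between these libraries, which may be technical.

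Depth ran to between 27.3 and 89.1 M mapped reads per RNA library, as recovered from the values, and ATAC libraries held 15.3 to 38.6 M tags. Pax5 was at 8.53 to 15.7 in Ebf1-KO, 98.6 to 129 in Pax5-KO and 1314 to 1629 in WT, while Ebf1 was at 1345 to 1605 in Ebf1-KO, 1329 to 1661 in Pax5-KO and 3252 to 4454 in WT, so the level of Ebf1 does not tell the knockouts apart. Both transcripts were below WT in both knockouts, so a difference in either knockout cannot be assigned to a single factor. Reads were counted over all exons, and whether the deleted parts were missing could not be seen. The summed level of 8 pro-B markers, Ebf1 and Pax5 among them, was 1565 to 1821 in Ebf1-KO and 7465 to 10987 in Pax5-KO, against 23399 to 24877 in WT. Of these, Cd79a averaged 1.88 in Ebf1-KO and 227 in Pax5-KO, against 2226 in WT, and Vpreb1 1.73 and 1007, against 1306. The summed level of 8 myeloid markers was 1190 to 1423 in Ebf1-KO, 772 to 930 in Pax5-KO and 9.51 to 21 in WT, and that of 8 T and NK cell markers was 1329 to 1406, 73.2 to 137 and 10.1 to 11.2 in the same order. Of the T and NK cell markers Il2rb (mean 577) and Id2 (284) were highest in Ebf1-KO, while Cd3g averaged 13.7 and Cd3e 0.914 there. Tyrobp made up most of the myeloid sum in Ebf1-KO (mean 835, against 0.633 in WT) and Cd33 in Pax5-KO (637, against 0.422). Elane, Csf1r, Csf3r and Lyz2 averaged at most 6.80 in every genotype, and Lyz2 was lower in Ebf1-KO (1.97) than in WT (4.39). The summed level of 10 stromal markers was 393 to 468 in Ebf1-KO, 82.0 to 236 in Pax5-KO and 139 to 321 in WT, with Dcn at 0 in all 9 libraries. Of that sum Pdgfrb made up most in Ebf1-KO (mean 373 in Ebf1-KO and 25.4 in Pax5-KO, against 0.523 in WT), while Acta2 (13.9 and 62.2, against 114) and Fn1 (34.4 and 40.2, against 85.1) were lower in both knockouts than in WT. The part of these differences in the results below was not tested, and in such bulk samples fewer cells of a type and less RNA per cell cannot be told apart.

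RNA levels below are the authors' reads per 10 M mapped reads. Fold changes were fitted with limma on log2(level + 1), which understates changes of low genes. Replicate numbers were not in this fit, and were added as a block in an alternative. Each log2 fold change is given less the median over all 12839 genes tested, which was 0.31 for Ebf1-KO over WT, 0.28 for Pax5-KO over WT and 0.05 for Ebf1-KO over Pax5-KO. A gene was called at a Benjamini-Hochberg adjusted p under 0.05 over all genes. The test was of the change before the median was taken off, so each call was also read with TMM scaling, which sets typical genes to no change. Reads in exons made up 60.5 to 69.8% of mapped reads in Ebf1-KO, 55.5 to 71.4% in Pax5-KO and 47.0 to 59.3% in WT, with WT 1 lowest. WT 1 was also the lowest WT library for 6 of the 7 tested members.

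None of the 7 tested members was called lower in either knockout by limma with the authors' scaling, also at an unadjusted p under 0.05 (0 in each). In Pax5-KO 1 member, Slc2a1, was called lower by edgeR, by DESeq2 and by limma with TMM scaling and the replicate block. In Ebf1-KO 5 were called higher (Cnr2, Txnip, Insr, Hk2 and Slc2a3) and 0 lower, against 40.8% of all tested genes called higher and 14.4% lower (55.3% either way), with a median log2 fold change over the 7 of 0.36. In Pax5-KO 4 were called higher (Slc2a3, Cnr2, Nr3c1 and Insr) and 0 lower, against 34.7% and 11.9% of all tested genes (46.5% either way), with a median of 0.22. With TMM scaling and no block 3 members were called higher in each knockout and 0 lower. The same rescaling turned 5240 higher and 1855 lower genes into 3887 and 3528 for Ebf1-KO over WT, and 4451 and 1525 into 3407 and 2973 for Pax5-KO over WT. Between the knockouts 2 members were higher in Ebf1-KO than in Pax5-KO (Cnr2 and Txnip) and 1 was lower (Slc2a3), against 17.5% and 13.3% of all tested genes, 30.9% either way (2250 and 1712 genes, or 2608 and 2530 with TMM). With the replicate number as a block 7 members were called in Ebf1-KO, 5 in Pax5-KO and 6 between the knockouts, against 68.4%, 62.9% and 43.8% of all tested genes. Calls were thus common over all genes, and the counts are read as no result about the members. None of the brakes was called lower than WT in either knockout by any method run. The data thus do not show a loss of these 3 transcripts in either knockout, and a small loss is not excluded.

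**Figure D1:**
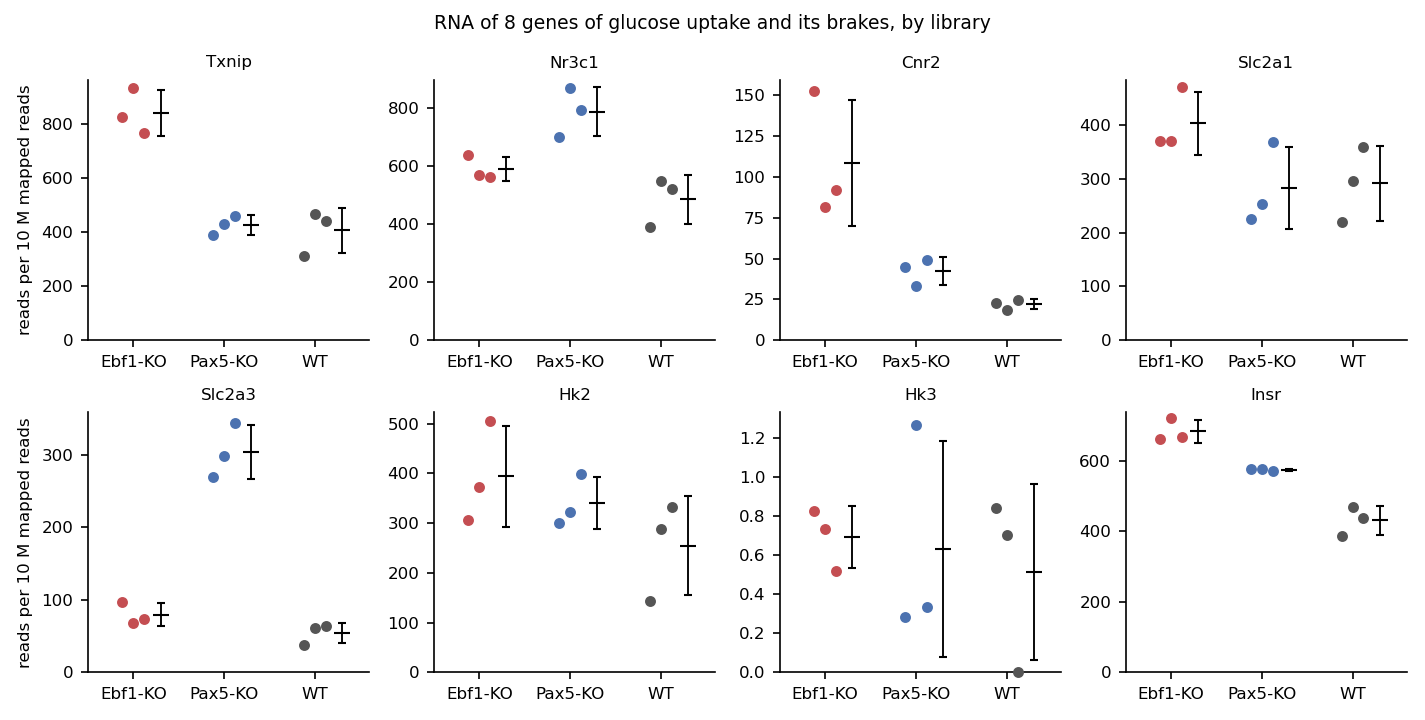
RNA level of each gene in reads per 10 M mapped reads, with 1 point per library, and the mean ± SD of 3 libraries beside the points; each axis starts at 0. Cnr2 and Txnip stood highest in Ebf1-KO, Slc2a3 and Nr3c1 stood highest in Pax5-KO, and Hk3 was at most 1.27 in all 9 libraries.

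**Figure D2:**
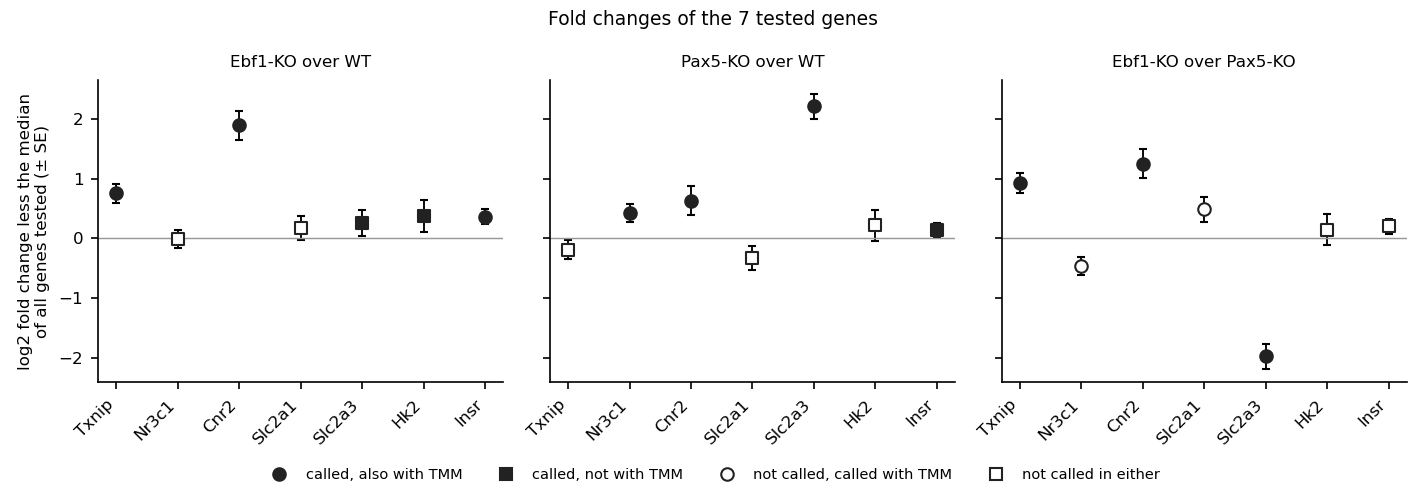
Log2 fold change of the 7 tested genes, less the median of all genes tested, with its limma standard error, for Ebf1-KO over WT, Pax5-KO over WT and Ebf1-KO over Pax5-KO. Over WT the largest values were those of Slc2a3 in Pax5-KO (2.21) and Cnr2 in Ebf1-KO (1.90), Slc2a3 was at -1.98 in Ebf1-KO over Pax5-KO, and squares mark values not called with TMM scaling.

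Among the brakes, Cnr2, the cannabinoid receptor of leukocytes, changed most in Ebf1-KO. Its level was 153, 81.3 and 91.7 in Ebf1-KO libraries, with 45, 33 and 49.4 in Pax5-KO libraries, against 22.7, 18.7 and 24.6 in WT libraries. The 3 groups did not overlap, in the order Ebf1-KO, Pax5-KO, WT from high to low. The mean was 109 ± 38.5 in Ebf1-KO against 22 ± 3.02 in WT (SD, n = 3 each), 4.94-fold higher (log2 fold change 1.90, SE 0.24, limma adjusted p = 1.54e-06). In Pax5-KO the mean was 42.5 ± 8.51, 1.93-fold over WT (0.63, SE 0.24, adjusted p = 0.00693). Ebf1-KO was also above Pax5-KO (1.25, SE 0.24, adjusted p = 0.000555). All 3 calls were kept with TMM scaling and without any single library. In the authors' deposited table of genes higher in Ebf1-KO, Cnr2 has a log2 fold change of 1.99 with an adjusted p of 8.77e-14, and it is in no other of the deposited gene tables, which list genes changed by at least 1.00 on that scale.

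Cnr2 (NM_009924, mm10 chr4:135895189-135920219, plus strand) holds a pair of EBF1-only sites in its single intron, 5029 and 7576 bp from its start. Both are on the authors' list of 754 EBF1 peaks at genes lower in WT than in Ebf1-KO. Their sequences are shown because Cnr2 is the member with the largest change in Ebf1-KO. They are from the plus strand of RefSeq GRCm38.p6 (mm10), with capitals for CCCNNGGG, the palindromic core of the EBF1 motif:
Cnr2 +5029, chr4:135900083-135900353: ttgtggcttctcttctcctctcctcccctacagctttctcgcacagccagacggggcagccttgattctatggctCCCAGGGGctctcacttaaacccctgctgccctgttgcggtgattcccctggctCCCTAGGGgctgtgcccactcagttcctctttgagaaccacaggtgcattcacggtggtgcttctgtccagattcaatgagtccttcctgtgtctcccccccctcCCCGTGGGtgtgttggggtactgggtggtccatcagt
Cnr2 +7576, chr4:135902630-135902900: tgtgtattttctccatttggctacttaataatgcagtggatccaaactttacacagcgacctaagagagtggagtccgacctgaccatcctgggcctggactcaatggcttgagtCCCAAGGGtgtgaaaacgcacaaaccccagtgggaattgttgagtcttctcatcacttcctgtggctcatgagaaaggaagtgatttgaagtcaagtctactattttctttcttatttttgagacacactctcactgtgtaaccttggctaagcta
The core was found 3 times in the first and 1 time in the second. Over all scanned sites it was present in 57.8% of EBF1-only sites, 44.9% of sites bound by both and 8.11% of PAX5-only sites.

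ATAC signal is given as tags per 10 M tags, with log2 differences fitted and centred in the same way over 14365 sites. All of these are sites bound by EBF1 or PAX5. Centring and TMM scaling over them would also remove a general loss of openness at bound sites. Whether the typical bound site was unchanged was not tested, so higher calls with TMM are relative to the other bound sites. The median over all sites was -0.78 for Ebf1-KO over WT, -0.75 for Pax5-KO over WT and -0.02 for Ebf1-KO over Pax5-KO. Of the 11 sites at members, 2 were called higher and 5 lower in Ebf1-KO, against 3.28% and 51.1% of all sites (54.4% either way). In Pax5-KO 0 were called higher and 6 lower, against 2.11% and 51.5% of all sites (53.7% either way), and at an unadjusted p under 0.05 the count of higher sites was also 0. Between the knockouts 3 were higher in Ebf1-KO and 1 lower, against 9.06% and 12.6% of all sites (21.7% either way). With TMM scaling 3 of these sites were called higher and 2 lower in Ebf1-KO. For Pax5-KO the counts with TMM were 3 and 1, as they were between the knockouts. Over all sites TMM moved the split from 471 higher and 7346 lower to 2927 and 4262 in Ebf1-KO, from 303 and 7405 to 1949 and 3047 in Pax5-KO, and from 1301 and 1816 to 1857 and 2220 between the knockouts. Of the 17 calls at members, 9 were kept with TMM scaling, among them all 4 between the knockouts, and values of the other calls are given below beside their p with TMM. The 3 sites called higher in Pax5-KO with TMM were the Cnr2 site at 5029 bp, the Hk2 site at 1523 bp and the Insr site at 32240 bp. Before such scaling their means in Pax5-KO were 7.03, 5.16 and 20.5 tags, against 6.34, 5.32 and 24.6 in WT.

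At the Cnr2 site 5029 bp from the start the signal was 4.67, 4.54 and 1.60 in Ebf1-KO, with 7.41, 7.16 and 6.52 in Pax5-KO, against 6.53, 6.27 and 6.21 in WT. All Ebf1-KO libraries lay below the others. Ebf1-KO was lower than Pax5-KO (log2 difference -0.86, SE 0.32, limma adjusted p = 0.0355, and 0.0181 with TMM), a call lost without Ebf1-KO 3 (adjusted p = 0.343) or any 1 Pax5-KO library (0.0582 to 0.0979). Ebf1-KO against WT was 0.02 relative to the median site, called lower before centring (adjusted p = 0.0384), and not with TMM (0.974) or without Ebf1-KO 3 or any 1 WT library (0.0519 to 0.356). Pax5-KO over WT was 0.87 relative to the median site (adjusted p = 0.757), called higher with TMM (0.0172) and edgeR (0.00542). The site 7576 bp from the start had 4.67, 2.42 and 1.92 in Ebf1-KO, with 1.76, 3.45 and 1.74 in Pax5-KO, against 5.23, 3.13 and 5.96 in WT, with overlapping groups and no call, except for Pax5-KO below WT without Pax5-KO 2 (adjusted p = 0.0314) or WT 2 (0.0207). Neither site was called more open in Ebf1-KO, where the Cnr2 transcript was highest.

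**Figure D3:**
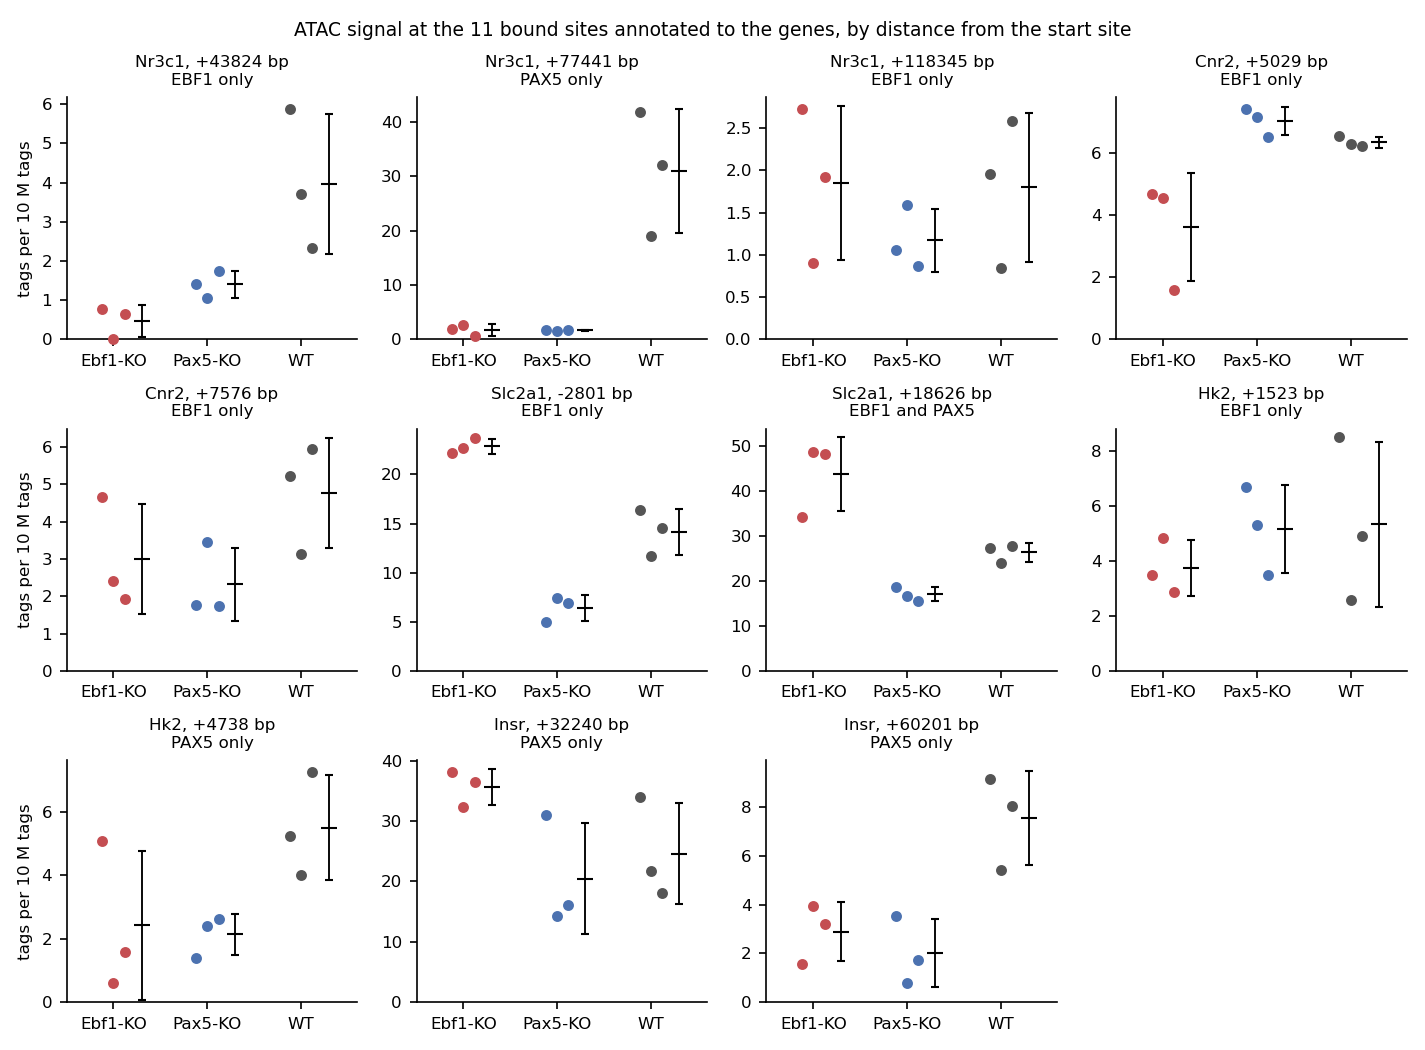
ATAC signal in tags per 10 M tags at the 11 bound sites annotated to the genes, 1 panel per site named by gene, distance from the start site in bp and bound factor, with 1 point per library and the mean ± SD of 3 libraries beside the points. The Slc2a1 sites were highest in Ebf1-KO and lowest in Pax5-KO, and the Nr3c1 site at +77441 bp was at most 2.72 in every knockout library and at 19.1 to 41.8 in WT.

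Txnip, which encodes the alpha-arrestin, rose in Ebf1-KO, both over WT and over Pax5-KO. It was at 827, 933 and 766 in Ebf1-KO, with 389, 432 and 462 in Pax5-KO, against 313, 468 and 442 in WT. Every Ebf1-KO library was above every other library, and Pax5-KO overlapped WT. The mean of 842 ± 84.5 in Ebf1-KO was 2.07-fold that of WT, 408 ± 83.1 (0.75, SE 0.16, adjusted p = 4.48e-05), and 1.97-fold that of Pax5-KO, 427 ± 36.6 (0.93, SE 0.16, adjusted p = 0.000167). Pax5-KO against WT gave -0.19 (SE 0.16, adjusted p = 0.675).

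Txnip (chr3:96557957-96561857, plus strand) lies within the antisense gene Gm15441 (chr3:96555768-96566801, minus strand), and 606 exon bases belong to both. No strand setting of the counting is given, so reads over those bases cannot be assigned to one of the genes. Gm15441 had the same order, at 128 ± 20.02 in Ebf1-KO and 71.5 ± 6.48 in Pax5-KO, against 61.9 ± 16.5 in WT (Ebf1-KO over WT 0.76, SE 0.21, adjusted p = 0.000486). Within 50 kb of the Txnip start there was 1 bound site, annotated to Gm15441 and bound by both factors. It had 13.6, 12.1 and 11.2 tags in Ebf1-KO, with 7.41, 8.75 and 9.56 in Pax5-KO, against 21.6, 19.1 and 14.8 in WT, and both knockouts were below WT in every library. Relative to the median site the differences were 0.24 in Ebf1-KO (adjusted p = 0.0815) and -0.27 in Pax5-KO (adjusted p = 0.000844, and 0.651 with TMM).

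Nr3c1, the glucocorticoid receptor, was highest in Pax5-KO. It was at 637, 569 and 561 in Ebf1-KO, with 698, 867 and 793 in Pax5-KO, against 389, 546 and 519 in WT. The groups did not overlap, in the order Pax5-KO, Ebf1-KO, WT. Pax5-KO averaged 786 ± 84.7 against 485 ± 83.8 in WT, 1.62-fold higher (0.43, SE 0.15, adjusted p = 0.00138). Ebf1-KO averaged 589 ± 41.4, which relative to the median gene gave -0.01 against WT (SE 0.15, adjusted p = 0.114). With the replicate number as a block the uncentred change in Ebf1-KO was called higher (adjusted p = 0.0282), and with block and TMM it was not (0.811). Ebf1-KO against Pax5-KO was -0.46 (SE 0.15, adjusted p = 0.0506), called lower with TMM (0.00425), with the block (0.00587), and without Pax5-KO 1 (0.0341) or WT 1 (0.0169).

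The site with the largest change of all 11 lies at the 3' end of Nr3c1. This PAX5-only site (chr18:39409680-39409928, annotated as the transcription end, 77441 bp from the start) had 1.95, 2.72 and 0.64 tags in Ebf1-KO, with 1.76, 1.59 and 1.74 in Pax5-KO, against 41.8, 19.1 and 32.1 in WT. It was 17.5-fold lower in Ebf1-KO (log2 difference -2.76, SE 0.33, adjusted p = 2.24e-16) and 18.3-fold lower in Pax5-KO (-2.76, SE 0.33, adjusted p = 7.52e-16), with both calls kept under TMM. The knockouts did not separate from each other there (-0.02, adjusted p = 0.954). The Nr3c1 transcript was not called lower in either knockout.

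An EBF1-only site in Nr3c1 (chr18:39443286-39443556, intron 1 of 7 in the authors' annotation and 2 of 8 by RefSeq) also fell in Ebf1-KO. It had 0.78, 0 and 0.64 tags in Ebf1-KO, with 1.41, 1.06 and 1.74 in Pax5-KO, against 5.88, 3.70 and 2.33 in WT, and the Ebf1-KO values rest on 4 raw tags in all. The Ebf1-KO difference was -0.95 (SE 0.39, adjusted p = 7.27e-05, and 0.00996 with TMM). In Pax5-KO it was -0.25 (adjusted p = 0.0246), not called with TMM (0.540) or without WT 1 (0.155) or Pax5-KO 2 (0.0884). The third site annotated to Nr3c1 (chr18:39368765-39369035) lies 118345 bp away in an intron of Arhgap26, had 0.85 to 2.73 tags in every library and gave no call.

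Slc2a1, which encodes GLUT1, was above Slc2a3 per kb of exon in each genotype. Its level was 370.2, 370.5 and 471 in Ebf1-KO, with 226, 254 and 369.7 in Pax5-KO, against 221, 296 and 360.3 in WT. All Ebf1-KO libraries were above all others, the lowest of them by less than 1 read per 10 M over the highest of Pax5-KO, and Pax5-KO overlapped WT. Ebf1-KO averaged 404 ± 58.4, Pax5-KO 283 ± 76.0 and WT 292 ± 69.7. Ebf1-KO over WT was 0.18 (SE 0.21, adjusted p = 0.0585), with the block 0.000575 and with TMM 0.284, and it was called without Pax5-KO 1 (0.0414), Pax5-KO 3 (0.0235) or WT 3 (0.0216). Pax5-KO over WT was -0.33 (SE 0.21, adjusted p = 0.86, and 0.0616 with TMM), which edgeR (adjusted p = 0.0477), DESeq2 (0.0326) and the block with TMM (0.0032) called lower. Ebf1-KO over Pax5-KO was 0.49 (SE 0.21, adjusted p = 0.0644), called higher with TMM (0.0096), with the block (0.000418), and without Pax5-KO 3 (0.00681) or WT 1 (0.0418).

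The 2 bound sites of Slc2a1 differed between the knockouts in every library. Slc2a1 is on chromosome 4 (chr4:119108745-119137329, plus strand). Its EBF1-only site, 2801 bp before the start in intergenic sequence, had 22.2, 22.7 and 23.7 tags in Ebf1-KO, with 4.94, 7.42 and 6.95 in Pax5-KO, against 16.3, 11.7 and 14.5 in WT. Its site bound by both factors, in intron 2 of 9 and 18626 bp past the start, had 34.3, 48.7 and 48.3 in Ebf1-KO, with 18.7, 16.7 and 15.6 in Pax5-KO, against 27.4, 23.9 and 27.7 in WT. At both sites the groups did not overlap, with Ebf1-KO highest and Pax5-KO lowest.

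The upstream site was 3.55-fold higher in Ebf1-KO than in Pax5-KO (log2 difference 1.72, SE 0.27, adjusted p = 2.95e-07) and the intronic site 2.57-fold higher (1.32, SE 0.26, adjusted p = 5.29e-05). Both calls were kept with TMM and without any single library. Over WT, Ebf1-KO was 1.61-fold higher upstream (1.45 relative to the median site, SE 0.27, adjusted p = 0.0284, and 1.56e-07 with TMM) and 1.66-fold higher in the intron (1.48, SE 0.26, adjusted p = 0.0181, and 8.62e-10 with TMM). Without single libraries these adjusted p reached 0.0837 upstream (without WT 2, and above 0.05 also without WT 3 or any 1 Ebf1-KO library) and 0.0970 in the intron (without Ebf1-KO 2, and above 0.05 also without Ebf1-KO 3). Upstream, Pax5-KO over WT gave -0.29 relative to the median site (SE 0.27, adjusted p = 0.000668), a call not made with TMM (0.552). In the intron it was 0.14 relative to the median site, called lower before centring (adjusted p = 0.0427) and not with TMM (0.214) or when any 1 of 6 libraries was left out (up to 0.13).

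The sequences of these sites are shown because they carry the clearest difference between the knockouts. Capitals would mark CCCNNGGG or GCGTGAC (a core of the PAX5 paired-domain motif, both strands), and neither string occurs in these windows, which says only that those letters are not there:
Slc2a1 -2801, chr4:119105809-119106079: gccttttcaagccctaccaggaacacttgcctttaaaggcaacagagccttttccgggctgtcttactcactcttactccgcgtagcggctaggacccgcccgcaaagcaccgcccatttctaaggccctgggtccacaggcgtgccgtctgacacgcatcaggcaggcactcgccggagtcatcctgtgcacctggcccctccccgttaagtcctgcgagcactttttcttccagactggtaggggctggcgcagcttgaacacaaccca
Slc2a1 +18626, central 300 bases, chr4:119127222-119127521: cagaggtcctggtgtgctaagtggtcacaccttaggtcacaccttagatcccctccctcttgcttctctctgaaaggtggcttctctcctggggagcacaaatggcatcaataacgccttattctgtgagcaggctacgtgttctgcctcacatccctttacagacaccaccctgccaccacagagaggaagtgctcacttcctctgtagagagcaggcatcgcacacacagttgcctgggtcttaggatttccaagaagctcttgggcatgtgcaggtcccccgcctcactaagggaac
They are from the plus strand of RefSeq GRCm38.p6.

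Slc2a3, which encodes the high-affinity transporter GLUT3, showed the largest RNA change of the members. It was at 97.3, 68.2 and 73.3 in Ebf1-KO, with 269.7, 298 and 343 in Pax5-KO, against 37.9, 60.9 and 64.1 in WT. Every Pax5-KO library was far above every other library, and all Ebf1-KO libraries were above WT by a small margin. Pax5-KO averaged 304 ± 37 against 54.3 ± 14.3 in WT, 5.59-fold higher (2.21, SE 0.21, adjusted p = 1.15e-07). Ebf1-KO averaged 79.6 ± 15.6 and was lower than Pax5-KO (-1.98, SE 0.21, adjusted p = 2.50e-06). Both calls were kept with TMM, edgeR and without any single library. The authors' deposited table of genes higher in Pax5-KO gives Slc2a3 a log2 fold change of 2.24 with an adjusted p of 6.22e-49.

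Ebf1-KO over WT was a smaller difference for Slc2a3 (0.26, SE 0.21, adjusted p = 0.0346). It was lost with TMM (0.208), without WT 1 (0.169), without Ebf1-KO 1 (0.152) or 3 (0.0504), and without Pax5-KO 2 (0.0501). No bound site lay within 50 kb of the Slc2a3 start (chromosome 6, minus strand). 

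Hk2, the inducible hexokinase that holds glucose in the cell as glucose 6-phosphate, had the largest standard error of the tested members. It was at 306, 372 and 505 in Ebf1-KO, with 299, 323 and 399 in Pax5-KO, against 143, 288 and 333 in WT. The groups overlapped, and WT 1 was far below the other WT libraries. Ebf1-KO averaged 394 ± 101, Pax5-KO 340.5 ± 51.9 and WT 255 ± 99.3. Ebf1-KO over WT was 0.38 (SE 0.26, adjusted p = 0.039), lost with TMM (0.149), without WT 1 (0.223), without Ebf1-KO 2 (0.0736) or 3 (0.166) and without Pax5-KO 2 (0.0538). The call was kept with the block (0.000261) and with block and TMM (0.0317). Pax5-KO over WT was 0.22 (SE 0.26, adjusted p = 0.137), called with the block (0.00468) and without WT 3 (0.0411), and not with block and TMM (0.155). Without WT 1 the Pax5-KO value was -0.07.

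Hk2 (chr6:82725027-82774454, minus strand) had an EBF1-only site 1523 bp and a PAX5-only site 4738 bp into the gene, both in intron 1 of 17. The EBF1-only site had 3.5, 4.84 and 2.88 tags in Ebf1-KO, with 6.70, 5.30 and 3.48 in Pax5-KO, against 8.49, 2.56 and 4.92 in WT, with overlapping groups and no call with the authors' scaling. There Pax5-KO over WT was 0.79 relative to the median site (adjusted p = 0.93), called higher with TMM (0.0474) and edgeR (0.0172). The PAX5-only site had 5.06, 0.61 and 1.60 in Ebf1-KO, with 1.41, 2.39 and 2.61 in Pax5-KO, against 5.23, 3.99 and 7.25 in WT. Its Pax5-KO libraries were all below WT, with -0.29 relative to the median site (adjusted p = 0.0161, and 0.581 with TMM), and without Pax5-KO 1 or WT 3 the adjusted p was 0.0755 and 0.0986. Ebf1-KO gave -0.33 (adjusted p = 0.00928, and 0.391 with TMM), with 0.161 without Ebf1-KO 2 and 0.069 without WT 3.

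Hk3, a hexokinase of myeloid cells, was near the limit of counting and was not tested. Its level was 0.825, 0.733 and 0.517 in Ebf1-KO, with 0.285, 1.27 and 0.337 in Pax5-KO, against 0.841, 0.704 and 0 in WT. It had 8 reads over the Ebf1-KO libraries, 8 over Pax5-KO and 5 over WT, of 122, 156 and 127 M mapped reads in the same order. A difference between groups was not detectable at this depth, and the highest library value was 1.27.

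Insr, the insulin receptor, was higher in Ebf1-KO with little spread between libraries. It was at 663, 721 and 667 in Ebf1-KO, with 575, 577 and 570.1 in Pax5-KO, against 388, 468 and 437 in WT. The groups did not overlap, in the order Ebf1-KO, Pax5-KO, WT. Ebf1-KO averaged 684 ± 32.3 against 431 ± 40.7 in WT, 1.59-fold higher (0.36, SE 0.12, adjusted p = 0.000322, and 0.0122 with TMM). Pax5-KO averaged 574 ± 3.65, and its call (0.14, SE 0.12, adjusted p = 0.0131) was lost with TMM (0.231). Ebf1-KO over Pax5-KO was 0.20 (SE 0.12, adjusted p = 0.156), called with the block (0.0325) and with block and TMM (0.0421).

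Insr (chr8:3150922-3279617, minus strand) held 2 PAX5-only sites in intron 2 of 20. The site 32240 bp from the start had 38.2, 32.4 and 36.5 tags in Ebf1-KO, with 31, 14.3 and 16.1 in Pax5-KO, against 34.0, 21.6 and 18.1 in WT. All Ebf1-KO libraries were above Pax5-KO, and WT overlapped both. Ebf1-KO was higher than Pax5-KO (0.87, SE 0.27, adjusted p = 0.0152, and 0.00174 with TMM), a call lost without Pax5-KO 2 (0.163) or 3 (0.0812) or without Ebf1-KO 1 (0.0617) or 3 (0.0612). Over WT it was 1.35 relative to the median site (adjusted p = 0.0706), called higher with TMM (1.28e-07) and without WT 1 (0.00978). Pax5-KO over WT was 0.46 relative to the median site (adjusted p = 0.386), also called higher with TMM (0.018) and edgeR (0.00441). Its mean with the authors' scaling was 20.5 in Pax5-KO, below the 24.6 of WT.

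The site 60201 bp from the Insr start had 1.56, 3.93 and 3.20 tags in Ebf1-KO, with 3.53, 0.80 and 1.74 in Pax5-KO, against 9.15, 5.41 and 8.03 in WT, with both knockouts below WT in every library. Relative to the median site Pax5-KO gave -0.83 (SE 0.36, adjusted p = 0.000136) and Ebf1-KO -0.38 (SE 0.36, adjusted p = 0.00441, and 0.0554 without Ebf1-KO 1). Neither call was made with TMM (0.0648 in Pax5-KO and 0.358 in Ebf1-KO). GCGTGAC was present in 5.74% of PAX5-only sites, 3.27% of sites bound by both and 1.36% of EBF1-only sites. The Slc2a1 site at 18626 bp was read over its central 300 bases. Of the 11 sites as read, the Insr site at 60201 bp is the 1 that holds the string, in capitals below:
Insr +60201, chr8:3219292-3219540: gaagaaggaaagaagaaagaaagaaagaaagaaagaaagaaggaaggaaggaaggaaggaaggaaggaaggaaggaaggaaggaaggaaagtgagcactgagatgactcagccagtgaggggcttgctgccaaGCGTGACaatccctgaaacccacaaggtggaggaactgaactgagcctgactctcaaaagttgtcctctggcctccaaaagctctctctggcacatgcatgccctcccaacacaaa
The sequence is from the plus strand of RefSeq GRCm38.p6, and the gene is on the minus strand.

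Set side by side per kb of exon, Txnip had the highest level of the members in all 3 genotypes. It was at 302 ± 30.3 reads per kb per 10 M in Ebf1-KO and 153 ± 13.1 in Pax5-KO, against 146 ± 29.8 in WT. In Ebf1-KO the order then ran Slc2a1 (158), Nr3c1 (93.2), Insr (73.3), Hk2 (71.8), Cnr2 (26.6), Slc2a3 (20.2) and Hk3 (0.216). Neighbours whose libraries overlapped there were Insr and Hk2, and Cnr2 and Slc2a3. In Pax5-KO the order was Nr3c1 (124), Slc2a1 (111), Slc2a3 (76.9), Hk2 (62.0), Insr (61.5), Cnr2 (10.4) and Hk3 (0.197). Overlap was seen between Nr3c1 and Slc2a1, between Slc2a3 and Hk2 and between Hk2 and Insr. In WT the order was Slc2a1 (114), Nr3c1 (76.8), Hk2 (46.4), Insr (46.2), Slc2a3 (13.8), Cnr2 (5.39) and Hk3 (0.161), with Txnip, Slc2a1 and Nr3c1 overlapping in turn, and Hk2 and Insr. Slc2a3 thus ranked 4 of 8 in Pax5-KO and 7 of 8 in Ebf1-KO, against 6 of 8 in WT.

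The lists of related pathway genes held 74 tested genes, and their counts stand against the 40.8% of all tested genes called higher and 14.4% lower for Ebf1-KO, or 34.7% and 11.9% for Pax5-KO. Among the other hexose transporters, 5 of 12 were tested, and in Ebf1-KO 2 rose and 1 fell, while in Pax5-KO 1 rose and 1 fell. Slc2a6, which encodes GLUT6, was at 33.3 ± 3.22 in Ebf1-KO and 10.1 ± 3.44 in Pax5-KO, against 0.435 ± 0.481 in WT (log2 fold change over WT 4.32 in Ebf1-KO, limma adjusted p = 2.49e-09, and 2.67 in Pax5-KO, adjusted p = 7.49e-07). Slc2a9, a urate transporter of the same family, fell to 30.8 ± 6.29 in Ebf1-KO and 29.2 ± 5.38 in Pax5-KO, against 64.0 ± 8.27 in WT. The list medians were -0.24 and -0.10.

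Of 8 tested hexokinases and users of glucose 6-phosphate, 4 rose in Ebf1-KO and 6 in Pax5-KO, with 0 falls and medians of 0.21 and 0.69 (with TMM 4 rose and 1 fell in Ebf1-KO). Hk1, the housekeeping hexokinase, was at 85.0 ± 11.4 in Ebf1-KO and 142 ± 11.3 in Pax5-KO, against 47.9 ± 11 in WT, 2.96-fold higher in Pax5-KO (1.29, SE 0.19, adjusted p = 7.65e-06). Pgm2, a phosphoglucomutase, was at 307 ± 41.2 in Ebf1-KO and 174 ± 26 in Pax5-KO, against 88.6 ± 16.4 in WT.

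**Figure D4:**
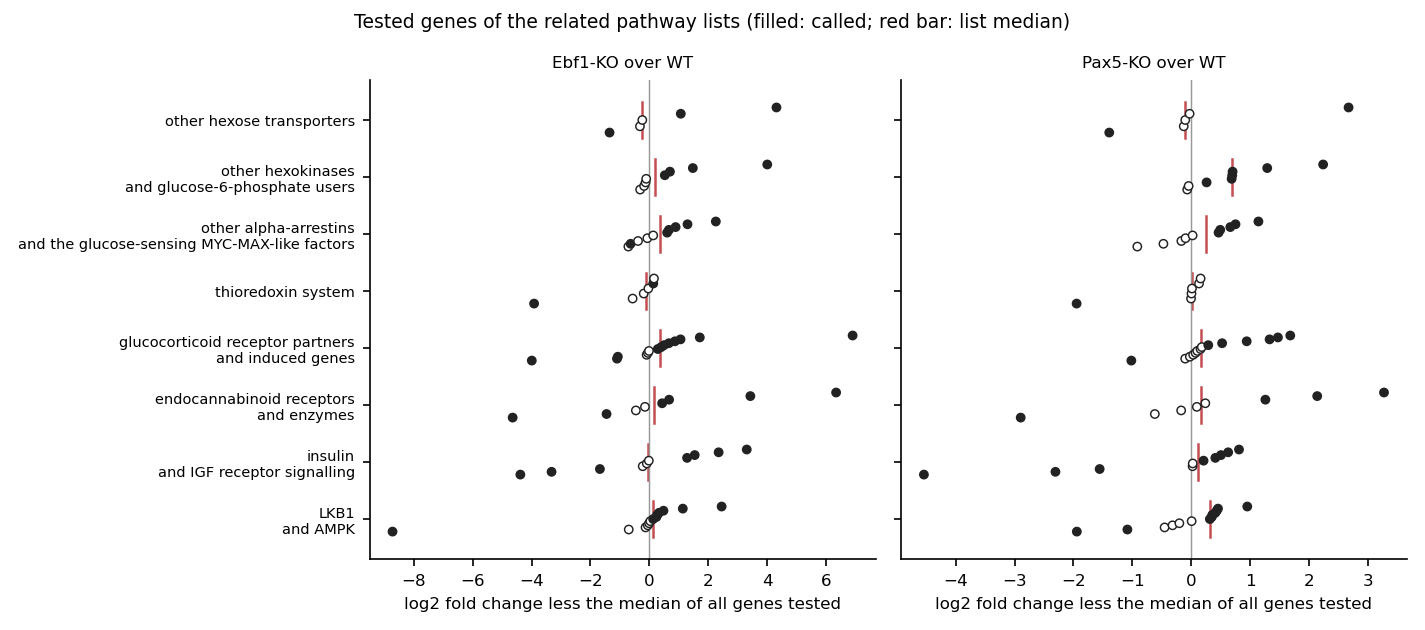
Log2 fold change, less the median of all genes tested, of every tested gene in the 8 pathway lists for Ebf1-KO over WT and Pax5-KO over WT; filled points were called at adjusted p under 0.05 and the red bar is the list median. In Ebf1-KO the medians ran from -0.24 to 0.37, and those of Pax5-KO from -0.10 to 0.69; single genes reached -8.73 (Prkaa2 in Ebf1-KO) and 6.91 (Zbtb16 in Ebf1-KO).

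Among 10 tested relatives of TXNIP and factors of the MYC-MAX-like network, 5 rose and 1 fell in Ebf1-KO and 5 rose in Pax5-KO, with list medians of 0.37 and 0.24 (with TMM 5 and 3 in Ebf1-KO, 4 and 2 in Pax5-KO). Arrdc2, another alpha-arrestin, was at 29.3 ± 3.98 in Ebf1-KO and 24.5 ± 4.48 in Pax5-KO, against 12.4 ± 3.80 in WT. Mxd4, a MAX partner that represses transcription, was at 49.1 ± 4.91 in Ebf1-KO and 42.9 ± 2.97 in Pax5-KO, against 15.4 ± 0.505 in WT. In the thioredoxin system, whose protein TXNIP binds, 1 of 6 genes rose and 1 fell in Ebf1-KO and 1 fell in Pax5-KO, with medians of -0.11 and 0.01 (with TMM 0 rose and 2 fell in Ebf1-KO). The reductase gene Txnrd3 fell to 41.6 ± 9.89 in Ebf1-KO and 161 ± 21.5 in Pax5-KO, against 517 ± 99.6 in WT.

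Of 14 partners and induced genes of the glucocorticoid receptor, 8 rose and 3 fell in Ebf1-KO, and 6 rose and 1 fell in Pax5-KO (medians 0.35 and 0.17, and with TMM 7 and 3, and 6 and 1). Fkbp5, a glucocorticoid-induced co-chaperone of the receptor, was at 844 ± 73.1 in Ebf1-KO and 368 ± 91.9 in Pax5-KO, against 210.0 ± 47.5 in WT, 4.02-fold higher in Ebf1-KO than in WT (1.72, SE 0.20, adjusted p = 3.62e-07). Sgk1, a kinase induced by the receptor, went in opposite directions: it fell to 3.04 ± 1.42 in Ebf1-KO (-4.00, SE 0.25, adjusted p = 5.67e-09) and rose to 155 ± 38.7 in Pax5-KO (1.33, SE 0.25, adjusted p = 8.42e-05), against 49.3 ± 4.68 in WT. Zbtb16, which encodes PLZF, was at 148 ± 12.3 in Ebf1-KO, 2.49 ± 1.09 in Pax5-KO and 0 in all WT libraries, at least 629-fold and 10.6-fold higher than a floor of 3 reads over the WT group. Hsd11b1, whose enzyme regenerates active glucocorticoid, was at 84.0 ± 4.98 in Ebf1-KO and 201 ± 9.59 in Pax5-KO, against 51.1 ± 7.06 in WT (Pax5-KO over WT 1.68, SE 0.16, adjusted p = 6.45e-08).

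Around Cnr2, 8 genes of the endocannabinoid system were tested, and in Ebf1-KO 4 rose and 2 fell, while in Pax5-KO 3 rose and 1 fell (medians 0.14 and 0.17, and with TMM 3 and 2 in Pax5-KO). Of the hydrolases on this list, Faah and Mgll moved oppositely. Faah, which degrades anandamide, was at 132 ± 17.3 in Ebf1-KO and 6.20 ± 2.16 in Pax5-KO, against 0.340 ± 0.353 in WT (6.35, SE 0.27, adjusted p = 1.21e-11 in Ebf1-KO). Mgll, which degrades 2-arachidonoylglycerol, fell to 0.305 ± 0.28 in Ebf1-KO and 3.32 ± 1.04 in Pax5-KO, against 25.2 ± 4.24 in WT (-4.65, SE 0.27, adjusted p = 1.83e-09 in Ebf1-KO). Abhd6, another hydrolase gene of the list, was called higher in both knockouts, at 34.0 in Ebf1-KO and 50.1 in Pax5-KO, against 16.6 in WT. Abhd12 was called in neither (limma adjusted p = 0.499 in Ebf1-KO and 0.661 in Pax5-KO). Gpr55, a receptor for related lipids, was at 24.6 ± 5.48 in Ebf1-KO and 21.4 ± 4.10 in Pax5-KO, against 0.990 ± 0.720 in WT.

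Around Insr, 10 genes of insulin and IGF signalling were tested, with 4 rises and 3 falls in Ebf1-KO and 5 rises and 3 falls in Pax5-KO (medians -0.05 and 0.12, and with TMM 4 and 3 in Pax5-KO). Igf1r, the related IGF1 receptor, fell to 6.85 ± 2.86 in Ebf1-KO and 51.2 ± 0.659 in Pax5-KO, against 128 ± 28.0 in WT. Igf2r, which clears IGF2, rose to 2996 ± 67.2 in Ebf1-KO (2.36, SE 0.14, adjusted p = 1.85e-10) and fell to 115 ± 3.61 in Pax5-KO (-2.31, SE 0.14, adjusted p = 7.30e-09), against 475 ± 71.7 in WT. Grb10, an adaptor that restrains both receptors, was at 69.1 ± 4.65 in Ebf1-KO, below its 793 ± 27.1 in Pax5-KO (-3.55, SE 0.17, adjusted p = 2.01e-10) and 576 ± 136 in WT.

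Of 13 tested genes of LKB1 and AMPK, the energy sensor of the cell, 7 rose and 1 fell in Ebf1-KO, and 7 rose and 2 fell in Pax5-KO (medians 0.13 and 0.32, and with TMM 4 and 2, and 5 and 3). Prkaa2, which encodes a catalytic AMPK subunit, fell to 0.179 ± 0.183 in Ebf1-KO and 126 ± 12.6 in Pax5-KO, against 405 ± 69.1 in WT (-8.73, SE 0.20, adjusted p = 5.45e-14 in Ebf1-KO). Prkaa1, the other catalytic subunit gene, was called higher in both knockouts, at 501 in Ebf1-KO and 527 in Pax5-KO, against 321 in WT. Its log2 fold changes were 0.33 in Ebf1-KO (limma adjusted p = 0.000695) and 0.43 in Pax5-KO (0.000374). Prkag2, a regulatory subunit, was at 118 ± 14.8 in Ebf1-KO and 102 ± 16.5 in Pax5-KO, against 43.4 ± 10.2 in WT.

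The genes whose level followed a member most closely were found by Pearson's r of log2(level + 1) over the 9 libraries, which share depth and genotype, and are given as a description. Slc2a3 was followed by Hexa (r = 0.995) and Stk10 (0.992), and Cnr2 by Ifnar1 (0.992) and Ip6k1 (0.991). Insr was followed by Lair1 (0.993) and Lacc1 (0.992), Txnip by Ncs1 (0.985) and Tank (0.983), and Nr3c1 by Trove2 (0.986) and Snx16 (0.978). Slc2a1 was followed by Chtop (0.994) and Gnb1 (0.986), and Hk2 by Usp16 (0.986) and Polr3e (0.978). Among the members themselves Nr3c1 and Slc2a3 were the closest pair (r = 0.934), followed by Cnr2 and Insr (0.863).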

How the data were processed

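RNA libraries (NuGEN Ovation Ultralow, single reads, per the labels' protocols) and ATAC libraries (Nextera transposase) were processed by the submitters with TopHat, HOMER, edgeR and DESeq2, and with Bowtie2 and HOMER, on mm10, per the submitters' processing notes. Their versions were not given in the sources used here. Per the file headers, the gene table deposited by the authors holds a signal of exon reads per gene, scaled to 10 M mapped reads, and the ATAC tables hold tags per ChIP peak, scaled to 10 M tags. Reads recovered from the low values were whole within 0.1 reads for 100% of values. Log2 fold changes, adjusted p-values and peak scores printed from deposited tables are the authors' own.

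The members and lists were chosen with earlier results of these data known. Values were tested with limma 3.58.1 (trend) on log2(value + 1) over 9 libraries, genes passing edgeR 4.0.16 filterByExpr, and peaks with at least 10 tags in all (14365 of 14377). Alternatives were a pseudocount of 0.5, no filter, TMM, edgeR, DESeq2 1.42.0, the 2 groups alone, the replicate number as a block, and leaving out each library, plus TMM with the block, added after seeing the data. The method was tested on simulated data. Libraries of the same number deviated together in RNA (r from 0.12 to 0.44 in 9 pairs, against -0.37 to 0.03 in 18 others). The main RNA fits did not use this pairing, which entered only with the replicate number as a block. RNA standard errors, adjusted p and calls given without mention of the block are therefore unpaired. Named genes were the members, up to 4 called genes per list and comparison by fold change, and the 2 genes of highest r per member. Tools were R 4.3.3, Python 3.11.15, pandas 2.3.3, NumPy 2.4.6, pysam 0.24.0 and matplotlib 3.10.9.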

Additional observations from a re-analysis of the deposited data

Results flagged for a closer look

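For 7 results the Ebf1-KO and Pax5-KO libraries differed, by the direct limma contrast of Ebf1-KO over Pax5-KO. Pax5 RNA was also low in Ebf1-KO, so this contrast does not separate the effects of the factors. In RNA these were Txnip (log2 fold change 0.93), Cnr2 (1.25) and Slc2a3 (-1.98). In ATAC they were the Slc2a1 sites at -2801 bp (1.72) and 18626 bp (1.32), the Insr site at 32240 bp (0.87) and the Cnr2 site at 5029 bp (-0.86). Groups of 3 libraries were not screened for single outlying libraries.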

How the results depend on the processing

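Counts of calls over all features were within 1.5 times of those reported under every alternative run, except for Pax5-KO against WT in ATAC (7708 sites, against 4996 with TMM and 4972 with TMM and the replicate block) and Ebf1-KO against Pax5-KO in RNA (3962 genes, against 6210 with TMM and the replicate block). Among member genes, the 5 called in Ebf1-KO against WT became 3 with TMM, edgeR, DESeq2 or no filter on low values. The 3 called between the knockouts became 5 with TMM, edgeR, DESeq2 or only the 2 groups compared, and 6 with the replicate block, alone or with TMM. Leaving out 1 library gave 3 to 6 members in Ebf1-KO against WT and 3 to 5 between the knockouts, and 4 to 7 and 2 to 4 sites for the same comparisons in ATAC. Directions relative to the median reversed, with no call on either side, for Nr3c1 in Ebf1-KO without a filter (0.10), and with edgeR between the knockouts for the Hk2 site at 4738 bp (0.11) and the Nr3c1 site at 77441 bp (0.10). Without 1 library, relative values spanned 0 for the results below. With all libraries, Ebf1-KO was called below WT at the Cnr2 site at 5029 bp (limma adjusted p = 0.0384). The same call was made at the Hk2 site at 4738 bp (0.00928), and the other results below were uncalled. The Cnr2 site at 5029 bp, Ebf1-KO over WT, ran from -0.19 to 0.42. The Cnr2 site at 7576 bp ran from -0.026 to 0.50 between the knockouts, -0.0699 to 0.45 in Ebf1-KO and -0.28 to 0.11 in Pax5-KO. The Hk2 site at 4738 bp ran from -0.59 to 0.38 between the knockouts and -0.87 to 0.10 in Ebf1-KO, and the Nr3c1 site at 77441 bp from -0.28 to 0.33 between the knockouts. In RNA, Hk2 in Pax5-KO ran from -0.0705 to 0.39 and Nr3c1 in Ebf1-KO from -0.0853 to 0.0809.
For the pairing, same-numbered ATAC libraries did not deviate together (r from -0.05 to 0.11). The block ended the ATAC call of the Slc2a1 site at 18626 bp in Pax5-KO (adjusted p = 0.0542) and changed no other ATAC call, and in RNA it changed no member's call beyond those given in the report. At 0 to 161 tags per site and library, depth limits the ATAC values of single sites. The causes were not tested.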
